A study of Mus musculus with 10 samples.

Results

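Of the 15119 ZFP266 DamID-seq peaks in mouse embryonic fibroblasts (MEFs), 1666 (11.0%, 95% Wilson interval 10.5 to 11.5) held both a B1 SINE and an AP-1 motif. A peak was counted when the B1 SINE in it that was most like the consensus was at least 80% and under 95% identical over 80 aligned bp or more, and when the peak also held at least 1 exact 7-base AP-1 consensus, TGACTCA or its reverse complement TGAGTCA. A B1 SINE of this kind lay in 3787 peaks and an AP-1 motif in 6688 (44.2%). The rule used only sequence and position, not the strength of a peak.

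ZFP266 is a KRAB zinc finger protein, and in a study of the reprogramming of MEFs the DamID-seq experiment asked where it sits in the genome of these cells. WT MEFs of the 129 strain received the plasmid *PGK-mO-Dam* in 5 samples and *PGK-mO-Dam-Zfp266* in the other 5, with 100000 cells each, and were sorted 48 h after nucleofection. By their names the plasmids carry the PGK promoter, mO and Dam or Dam-ZFP266, and the fusion is made on top of the cells' own ZFP266. The level of the fusion is not stated in the sources used here. Dam methylates GATC sequences near the place where the fusion sits, Dam alone gives the background, and 32 ng of genomic DNA per sample went into each library.

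B1 SINEs are short, non-coding retrotransposons derived from 7SL RNA that are spread through the mouse genome, often in and near genes. They have a head, which carries an internal promoter for RNA polymerase III, and a tail that ends in a run of A. KRAB zinc finger proteins are a large family that bind DNA through arrays of zinc fingers, often within transposable elements, and that can bring the corepressor TRIM28 to them. AP-1 is a dimer of JUN, FOS and related factors, is highly active in fibroblasts, and binds the 7-base consensus counted here.

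The first sequence shown is the B1 SINE consensus used for the search, with the 2 stretches in which an AP-1 motif arose most often by base changes in capitals. It has 145 positions, was put together from 2 plus-strand stretches of chromosome 1 of GRCm38 and has an undefined base at position 89.
B1 SINE consensus: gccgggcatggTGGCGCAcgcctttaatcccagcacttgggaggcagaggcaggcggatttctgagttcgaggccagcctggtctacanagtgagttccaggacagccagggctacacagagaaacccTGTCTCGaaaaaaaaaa

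The next 3 sequences are B1 SINEs of peaks in which the AP-1 motif, in capitals, lay inside the element. Each is read 5′ to 3′ along the element from GRCm38. The first lies at chr5:53669675-53669819 (minus strand) near *Rbpj*, the second at chr9:110681737-110681876 (minus strand) in *Ccdc12* and the third at chr13:44962505-44962641 (minus strand) in *Dtnbp1*.
Rbpj, inside: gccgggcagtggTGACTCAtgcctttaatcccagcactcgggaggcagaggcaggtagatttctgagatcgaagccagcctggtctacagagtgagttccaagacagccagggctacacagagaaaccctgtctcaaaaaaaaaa
Ccdc12, inside: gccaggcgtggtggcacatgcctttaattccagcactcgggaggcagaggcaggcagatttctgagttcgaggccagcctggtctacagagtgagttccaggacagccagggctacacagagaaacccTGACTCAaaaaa
Dtnbp1, inside: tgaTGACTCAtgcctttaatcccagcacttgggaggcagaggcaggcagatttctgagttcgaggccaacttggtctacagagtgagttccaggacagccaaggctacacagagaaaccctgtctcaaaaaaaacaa

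The last 3 sequences show the other orders, from the AP-1 motif in capitals to the far end of the element. In the first the motif stood 45 bp beyond the head, at chr6:112278370-112278564 (plus strand). In the other two it stood 22 bp and 24 bp beyond the tail, at chr3:65971126-65971293 (minus strand) and chr10:79557992-79558169 (minus strand).
Lmcd1, head: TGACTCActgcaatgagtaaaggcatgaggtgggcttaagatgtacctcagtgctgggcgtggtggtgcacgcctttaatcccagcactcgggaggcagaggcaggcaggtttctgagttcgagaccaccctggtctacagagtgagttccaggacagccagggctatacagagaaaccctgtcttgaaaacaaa
Ccnl1, tail: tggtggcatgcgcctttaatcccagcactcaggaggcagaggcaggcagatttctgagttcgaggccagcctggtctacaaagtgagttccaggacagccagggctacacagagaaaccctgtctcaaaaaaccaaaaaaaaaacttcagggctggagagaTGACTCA
Mier2, tail: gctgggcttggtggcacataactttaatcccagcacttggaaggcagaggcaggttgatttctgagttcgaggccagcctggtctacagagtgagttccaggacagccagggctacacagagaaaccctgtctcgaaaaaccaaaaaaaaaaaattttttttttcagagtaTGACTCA

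The AP-1 motif nearest to the B1 SINE lay inside the element in few of these peaks. It was wholly inside in 23 of 1666 (1.38%, 95% Wilson interval 0.922 to 2.06), crossed the edge of the element in 4 (0.240%), stood beyond the head in 818 (49.1%) and beyond the tail in 821 (49.3%). The elements made up 4.48% of the bases of these peaks, so the share of motifs inside was smaller than the share of bases inside. Among the 1639 flanking motifs, 49.9% were on the head side (interval 47.5 to 52.3), which did not differ from an even split beyond counting error. These intervals, and those below, cover counting error or the spread among peaks only, because the deposited list pools the 10 samples and holds no value per replicate.

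The spacing between the 2 features was wide. Measured edge to edge, with 0 for an overlap, its median was 530.5 bp (95% order-statistic interval 505 to 568), its quartiles were 244 bp and 1034 bp, and the widest was 9381 bp. At most 50 bp separated them in 97 peaks (5.82%), at most 100 bp in 178 (10.7%) and at most 500 bp in 788 (47.3%), while in 125 they were more than 2000 bp apart. The median was 520 bp beyond the head (interval 470 to 561) and 577 bp beyond the tail (interval 528 to 656), and these intervals overlapped. The spacing moved with the length of the peak: it was 271 bp (254 to 313) in the 303 peaks shorter than 1500 bp and 785 bp (702 to 861) in the 632 longer than 3000 bp.

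**Figure D1:**
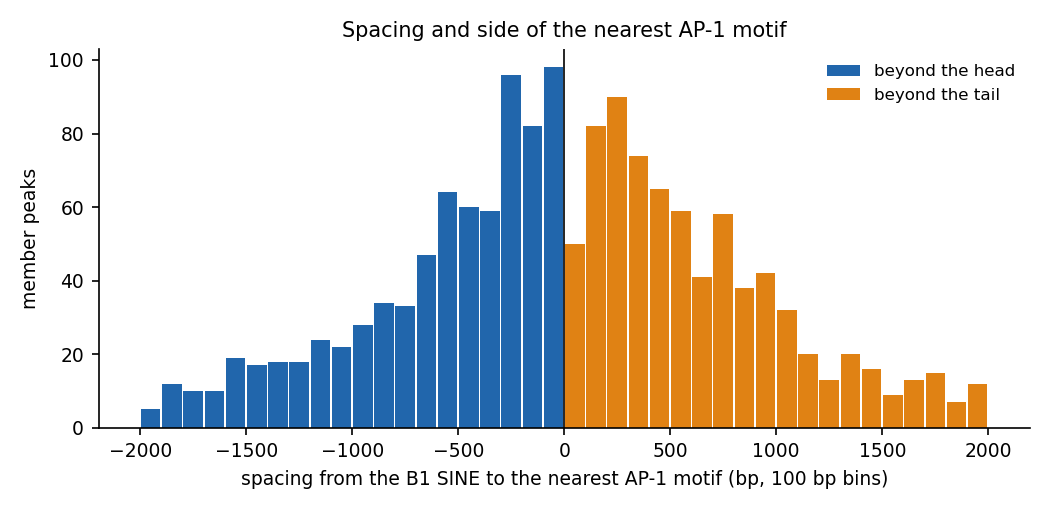
Number of peaks with a B1 SINE and an AP-1 motif (vertical axis) by the spacing in bp between the B1 SINE and its nearest AP-1 motif (horizontal axis, 100 bp bins up to 2000 bp), with motifs beyond the head on the left and beyond the tail on the right. The bins next to the element hold 98 peaks on the head side and 50 on the tail side, and both sides fall off with distance. Not drawn are the 125 peaks beyond 2000 bp, the 23 with the motif inside the element and the 4 with it across the edge.

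Every one of the 30238 borders of the 15119 peaks lay 2 bases into a GATC, so the peaks consist of complete DpnII fragments and DamID-seq cannot place ZFP266 more finely than that. The peaks with both features had a median length of 2510 bp (interval 2437 to 2586), against 1777 bp over all peaks, and ranged from 329 bp to 11630 bp. A single fragment made up 31.5% of them, against 55.7% of all peaks. The nearest AP-1 motif and the middle of the B1 SINE lay on the same fragment in 966 (58.0%, interval 55.6 to 60.3), and the fragment that held the middle of the element had a median length of 1250 bp.

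Most of these peaks held 1 copy of each feature or a few. A single AP-1 motif was found in 1083 (65.0%), 2 in 394 (23.6%) and 3 or more in 189 (11.3%), with 16 at most. A single B1 SINE was found in 1098 (65.9%), 2 in 380 (22.8%) and 3 or more in 188 (11.3%), with 8 at most. Of the 583 peaks with 2 or more AP-1 motifs, 171 (29.3%) had them on both sides of the element. The element used for the spacing was 91.7% identical to the consensus at the median (interval 91.4 to 91.8) over a median of 140 aligned bp, and 88.6% of the elements lay wholly in the peak.

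The distances of the AP-1 motif and the B1 SINE from the middle of the peak were measured in the 720 peaks with exactly 1 of each, whose median length was 2116.5 bp. The motif was at a median of 442 bp from the peak midpoint (interval 399.5 to 466) and the middle of the element at 531.5 bp (interval 475 to 576.5), and the motif was the nearer of the pair in 411 (57.1%, interval 53.4 to 60.7). A motif had to lie in the peak, while an element only had to overlap it. In the 608 of these peaks whose element lay wholly in the peak, a setting chosen after seeing the data, the medians were 456 bp (417.5 to 501.5) for the motif and 451.5 bp (415 to 515.5) for the element, and the motif was the nearer in 300 (49.3%, 45.4 to 53.3), so the margin was no longer there.

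To see how AP-1 motifs were laid out around B1 SINEs without the requirement that a peak holds one, their density was taken over all 3787 peaks with a B1 SINE of 80 to 95% identity. The same was done for the 182047 such B1 SINEs of GRCm38 that touched no peak. AP-1 motifs were scarcer within 100 bp of the element than farther out, less so in the stricter sets of peaks given below. In the peaks the density in the first 100 bp was 0.734 times that farther out in the peak (exact interval 0.621 to 0.863), and 0.714 times (0.603 to 0.839) that at 101 to 2000 bp, while for elements outside peaks the latter ratio was 0.728 (0.707 to 0.749). Taken by side, the ratio in the peaks was 0.958 (0.780 to 1.17) beyond the head and 0.474 (0.354 to 0.623) beyond the tail, where only the latter interval lay below 1. Around elements outside peaks it was 0.798 (0.767 to 0.830) beyond the head and 0.657 (0.629 to 0.686) beyond the tail. Farther out, at 101 to 2000 bp, the peaks held 1.78 times (1.70 to 1.86) the density found around elements outside peaks. The GRCm38 assembly as a whole had 0.164 AP-1 motifs per kb.

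Inside the element the density did not differ between the sets beyond counting error. It was 0.0524 motifs per kb in peaks (25 motifs by their middle base, exact Poisson interval 0.0339 to 0.0774) and 0.0520 outside them (0.0492 to 0.0550). The ratio of peaks to genome was 1.01 inside, with an interval of 0.650 to 1.49 that stood below the ratio of 1.78 in the flanks.

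The head and the tail sides differed close to the element. In the first 50 bp beyond the head the peaks had 50 motifs, or 0.286 per kb (interval 0.212 to 0.377), and in the first 50 bp beyond the tail 16, or 0.0897 per kb (0.0513 to 0.146). The ratio of head to tail was 3.18 (1.78 to 5.99). Elements outside peaks had the same order with a smaller ratio, 1.64 (1.49 to 1.81), from 0.127 per kb beyond the head and 0.0771 beyond the tail. Against those elements the peaks had 2.26 times (1.66 to 2.99) the density in the first 50 bp beyond the head and 1.16 times (0.661 to 1.90) in the first 50 bp beyond the tail. The intervals of the head-to-tail ratios of peaks and genome met at their ends, and no test of their difference was made. A run of A ends the B1 SINE on the tail side, and its bases past the 10 A of the consensus, as in the *Ccnl1* and *Mier2* sequences printed above, were counted as flank.

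**Figure D2:**
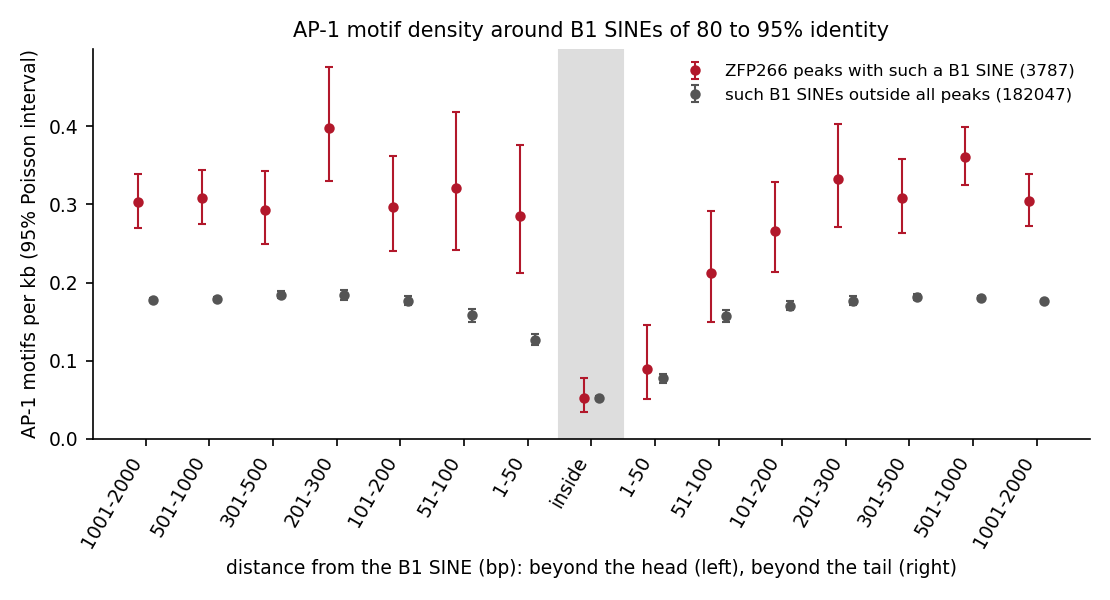
AP-1 motifs per kb (vertical axis, with exact 95% Poisson intervals) inside B1 SINEs of 80 to 95% identity (grey band) and in bins of distance in bp beyond the head (left) and the tail (right), in ZFP266 peaks (red) and around elements outside all peaks (grey). The peaks lie above the genome in every flanking bin, though not beyond the intervals at 1 to 50 bp and 51 to 100 bp of the tail, while the inside values are 0.0524 and 0.0520.

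The profile counts motifs by their middle base. Measured edge to edge, 55 motifs lay 0 to 50 bp from the head with a median gap of 24 bp (interval 19 to 33) and 18 from the tail with a median of 34 bp (interval 22 to 44), and the smallest gap on the tail side was 10 bp. No single spacing stood out, since at most 3 motifs shared a gap on either side. Read along the element, the nearest motif had the form TGACTCA in 880 of 1666 peaks (52.8%, interval 50.4 to 55.2) and TGAGTCA in the rest.

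The AP-1 motifs inside B1 SINEs fell at few places of the element. Of the 1234 in the 187195 B1 SINEs of 80 to 95% identity in GRCm38, 686 (55.6%) had their middle base at position 132 of the consensus, just ahead of the run of A, and 256 (20.7%) at position 15, in the head. Position 66 held 130 and position 95 held 50. An element with such a motif was rare, at 0.656% of those elements.

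In the 1666 peaks the 23 motifs inside used the same 4 places, with 12 at position 15, 8 at position 132, 2 at position 95 and 1 at position 66. Counting positions from 1 at the 5′ end of the consensus, all 12 at position 15 carried G14A and G16T, as in the *Rbpj* and *Dtnbp1* sequences. All 8 at position 132 carried T131A and G135A, as in the *Ccdc12* sequence. In the genome the same pair of substitutions made 250 of the 256 motifs at position 15 and 675 of the 686 at position 132. Position 15 thus came ahead of position 132 in the peaks and behind it in the genome, on counts too small to compare closely, and this difference was not tested.

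**Figure D3:**
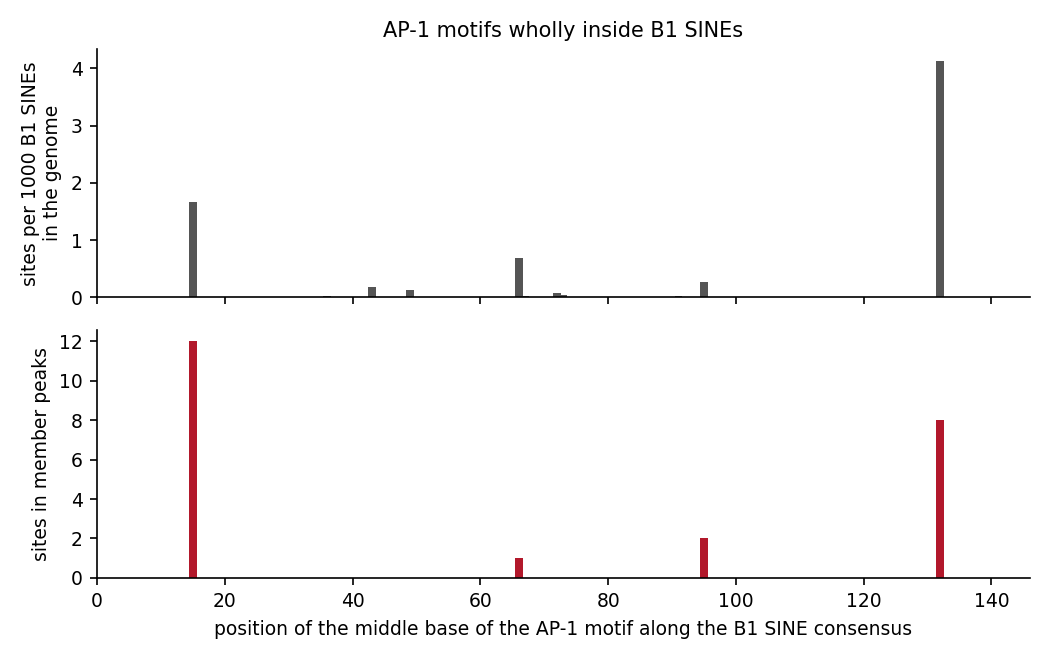
AP-1 motifs wholly inside B1 SINEs by the position of their middle base along the 145 positions of the consensus, as sites per 1000 elements of GRCm38 that cover the position (top) and as the number in peaks with a B1 SINE and an AP-1 motif (bottom). Position 132 is the highest in the genome with 4.13 per 1000, and position 15 is the highest in the peaks with 12 sites.

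Peaks with and without a B1 SINE held an AP-1 motif at like shares. AP-1 motifs were found in 44.0% of the peaks with a B1 SINE of 80 to 95% identity (interval 42.4 to 45.6) and in 44.4% of the 10145 peaks without any B1 SINE (43.4 to 45.3). Here and below, a peak without a B1 SINE had no element of at least 70% identity over 80 bp or more. Shorter or more diverged elements were not counted and can lie in these peaks. Tiles of GRCm38 with the lengths of the 1666 peaks held one in 34.1%. The 1666 were longer than all peaks, at medians of 2510 bp and 1777 bp, and longer peaks more often held a motif. The tiles are therefore not matched in length to either set of peaks. At a like length the share with the B1 SINE was the lower one in all 6 length classes, and the intervals were apart in 2 of them. In peaks of 1000 bp to under 1500 bp it was 29.6% (26.4 to 33.1) with and 36.2% (34.3 to 38.3) without, and in peaks of 1500 bp to under 2000 bp 33.2% (29.8 to 36.8) and 44.1% (42.0 to 46.3). In peaks from 4000 bp it was 75.7% (71.4 to 79.6) and 76.0% (72.2 to 79.4). Outside the element, peaks with a B1 SINE had 0.301 AP-1 motifs per kb (0.289 to 0.313) and peaks without any had 0.351 (0.343 to 0.359).

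On either side of each identity limit of the rule, signal value and spacing had overlapping intervals. Peaks with an AP-1 motif whose element was 80 to under 81% identical (78 peaks) had a median signal value of 0.831 and a median spacing of 520 bp, and those just outside, at 79 to under 80% (44 peaks), had 0.840 and 576.5 bp. At 94 to under 95% (219 peaks) the values were 0.835 and 589 bp (470 to 694). At 95 to under 96% (142 peaks, not counted) they were 0.806 and 764 bp (504 to 975). Within the range, the median spacing was 520 bp for elements of 80 to under 85%, 524 bp for 85 to under 90% and 537 bp for 90 to under 95%. The median signal value was, in the same order, 0.811 (0.774 to 0.842), 0.873 (0.835 to 0.905) and 0.851 (0.827 to 0.866).

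The signal value, which the peak caller gives for Dam-ZFP266 over Dam on a scale that the sources used here do not state, was lower in peaks with both features than over all peaks. Its median was 0.848 (interval 0.829 to 0.862, n = 1666), with quartiles of 0.682 and 1.04 and a range of 0.227 to 2.69, against 0.898 over all 15119 peaks. Peaks with the B1 SINE only had 0.931 (0.920 to 0.943, n = 2121), those with the AP-1 motif and no B1 SINE 0.849 (0.839 to 0.856, n = 4500) and those with neither 0.935 (0.927 to 0.942, n = 5645). A q-value under 0.05 was given for 1013 of the 1666 (60.8%, interval 58.4 to 63.1), where 52.5% of all peaks had one. A q-value under 0.05 together with a signal value above 1 was found in 395 (23.7%, 21.7 to 25.8), where 26.4% of all peaks had both.

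Length moved with these values. The median signal value of peaks with both features fell from 1.04 in those under 1000 bp (n = 97) to 0.842 at 2000 bp to under 3000 bp (n = 501) and 0.696 from 4000 bp (n = 312), and it fell in the other classes as well. At a like length, the peaks with both features and those with the B1 SINE only had overlapping intervals in all 6 length classes. Peaks with the AP-1 motif only stood lower beyond the intervals in 2 classes, at 0.884 (0.867 to 0.906) against 0.978 (0.916 to 1.02) at 1500 bp to under 2000 bp, and at 0.800 (0.784 to 0.812) against 0.842 (0.816 to 0.866) at 2000 bp to under 3000 bp. Longer peaks had the higher −log10 q: from 4000 bp its median was 1.53 (1.45 to 1.61) with both features, 1.41 (1.28 to 1.54) with the B1 SINE only and 1.46 (1.40 to 1.52) with the AP-1 motif only.

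**Figure D4:**
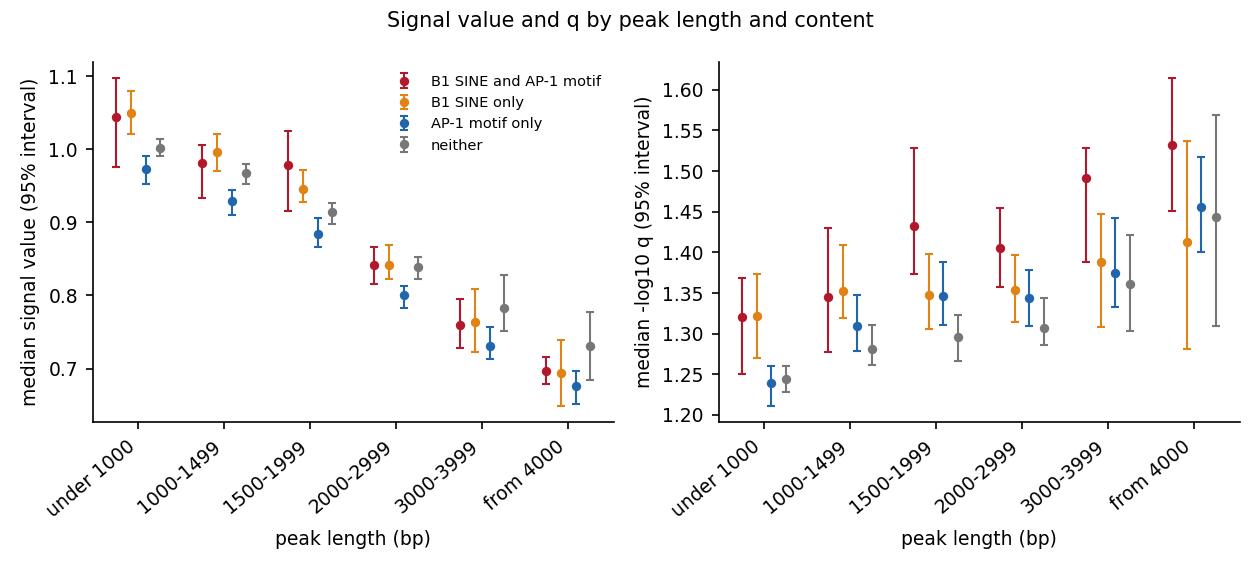
Median signal value (left) and median −log10 q (right), with 95% order-statistic intervals, by peak length in bp for peaks with a B1 SINE and an AP-1 motif (red), with the B1 SINE only (orange), with the AP-1 motif only (blue) and with neither (grey). The signal value of peaks with both falls from 1.04 to 0.696 with length, next to the orange points in each class, while the −log10 q rises to 1.53.

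The median signal value was lower in peaks with the features far apart, which were also longer. Over all it was 0.952 (0.755 to 1.07) in the 29 peaks with a spacing of 0 bp, 0.897 (0.846 to 0.957) in the 149 with 1 to 100 bp, 0.893 (0.875 to 0.918) in the 610 with 101 to 500 bp, 0.839 (0.811 to 0.864) in the 442 with 501 to 1000 bp and 0.760 (0.742 to 0.782) in the 436 with more. The median peak length was 2325 bp at 0 bp, 2055 bp at 1 to 100 bp and 3258.5 bp at over 1000 bp. Among peaks of 1500 bp to under 3000 bp the medians of the signal value were 0.806 (0.630 to 1.07, n = 16) at 0 bp, 0.851 (0.762 to 0.977, n = 55) at 1 to 100 bp, 0.897 (0.858 to 0.923, n = 284) at 101 to 500 bp, 0.896 (0.858 to 0.940, n = 205) at 501 to 1000 bp and 0.842 (0.793 to 0.874, n = 170) at over 1000 bp, with overlapping intervals.

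The peaks with both features were mostly intergenic or intronic, as were all peaks. By the midpoint, 866 (52.0%) were intergenic, 742 (44.5%, interval 42.2 to 46.9) in introns, 33 (1.98%) in exons and 25 in promoters, taken as the stretch from 1000 bp ahead of a transcript start to 100 bp past it. Of all 15119 peaks, 49.9% were intergenic, 45.7% in introns, 2.09% in exons and 2.31% (2.09 to 2.57) in promoters. The promoter share of peaks with both features had an interval of 1.02 to 2.21, which overlapped that of all peaks. It lay below that of peaks with the B1 SINE only, at 3.02% (2.37 to 3.83). Peaks with the AP-1 motif only had 1.8% (1.45 to 2.23). Peaks with the B1 SINE only were more often in introns, at 50.4% (48.2 to 52.5). Those with the AP-1 motif only were in introns in 43.0% (41.6 to 44.5). The first intron held 61.1% (57.5 to 64.5) of the 742, counted in the transcript that gives the lowest number, against 55.7% (54.5 to 56.8) of all intronic peaks. In introns the B1 SINE ran in the direction of the gene in 38.1% (34.7 to 41.7), and in 36.4% (33.6 to 39.4) of the intronic peaks with the B1 SINE only. Intergenic ones lay at a median of 14303.5 bp from the nearest gene.

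The peaks were found on 20 chromosomes, from 34 each on chromosome 19 and chromosome X to 118 on chromosome 2. Those chromosomes had 377, 351 and 1076 peaks of any kind, and chromosome Y had 5, none with both features. As a share of the peaks of a chromosome they ran from 8.09% on chromosome 13 to 13.6% on chromosome 7, apart from chromosome Y, beside 11.0% over all peaks. Another of their kind lay within 10 kb for 176 (10.6%), and no such share was taken for other peaks. None lay over *Zfp266*, where the plasmid itself gives signal and where the list has 5 peaks.

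Among the 10 peaks with the highest signal values outside *Zfp266*, 6 had a spacing of 206 bp or less and 4 one of 537 bp or more. These limits were read off the 10 peaks themselves. Over all 1666 peaks, 341 (20.5%) had a spacing of at most 200 bp. The spacings of 201 bp near *Odc1* and 206 bp at *Slc25a38* exceed that limit. The share of the 10 and that of the 1666 are therefore not at a like limit, and no difference was tested. Of the 10, the first lay in the third intron of the non-coding *Gm26885*, with a signal value of 2.69 and a q-value of 0.00222. It had 6 B1 SINEs and an AP-1 motif 188 bp beyond the tail of the one most like the consensus. The second, in the second intron of *Senp7*, which encodes a SUMO protease, had a signal value of 2.37 and 8 AP-1 motifs, the nearest 932 bp beyond the tail. The third, in the first intron of *Rad23b*, which encodes a DNA repair protein, had 2.33, with the motif 537 bp beyond the head. The fourth was the intergenic peak 12949 bp from *Rbpj*, the transcription factor of Notch signalling, with a signal value of 2.24, a q-value of 9.08e-05 and the motif inside the element. The others lay near *Odc1* (ornithine decarboxylase), *Atxn7l3b*, *Scand1* and *Igf2bp1* (an mRNA-binding protein), in *Mbp* and at the promoter of *Slc25a38* (a mitochondrial carrier), with signal values of 1.85 to 2.04. Their spacings ran from 22 bp beyond the head at *Mbp* to 1114 bp beyond the tail at *Scand1*.

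Among peaks with the motif inside the B1 SINE, *Rbpj* was followed by *Ccdc12* (signal value 1.52, q-value 0.000135), *Insc* (1.37, 0.00840), *Bst1* (1.33, 0.0432) and *Dtnbp1* (1.23, 0.00255). The *Bst1* element was exactly 80% identical and that of *Ccdc12* 92.9%. With the motif 1 to 50 bp beyond the head the highest were in *Mbp* (signal value 1.91), 375463 bp from *Nsun3* (1.80), near *Gigyf2* (1.75), in *Lmcd1* (1.56) and near *Gm20544* (1.44). With the motif 1 to 50 bp beyond the tail they were near *Ccnl1* (1.60), *Eif2s2* (1.54), *Csrnp1* (1.39), *Patz1* (1.26) and *Mier2* (1.11). The longest peak, of 11630 bp and 10 fragments in an intron of *8030462N17Rik*, had a signal value of 0.604, a q-value of 0.0536 and a spacing of 2325 bp.

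**Figure D5:**
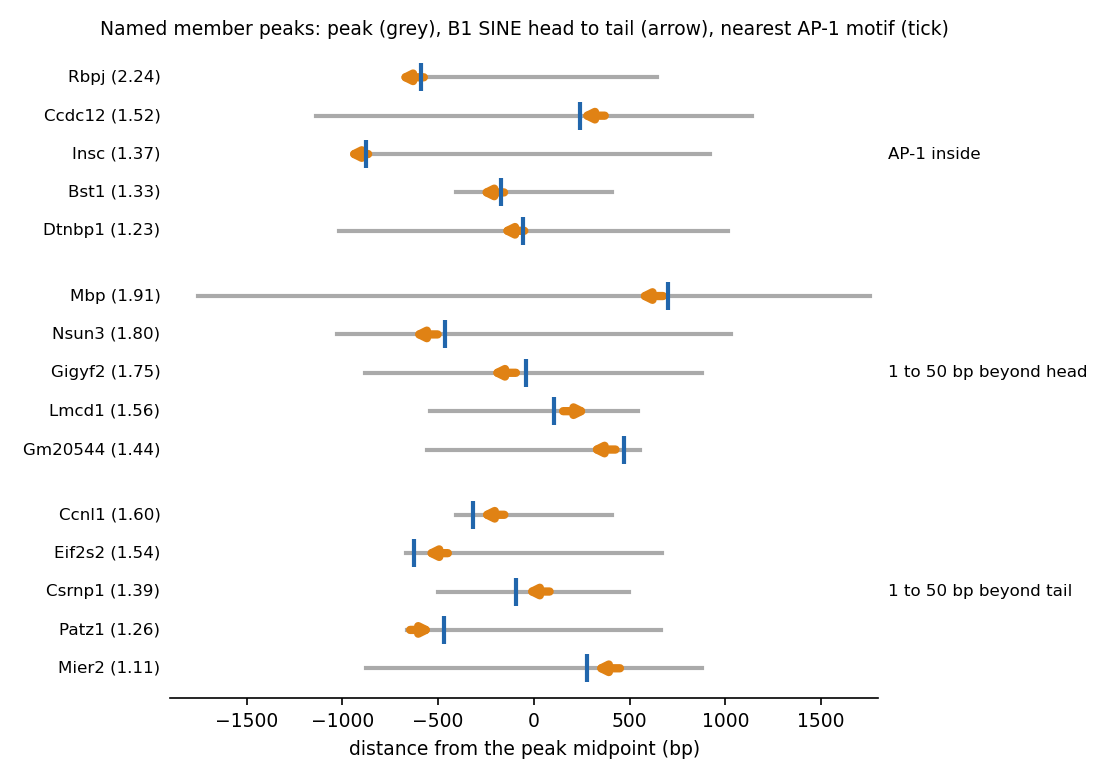
The 15 named peaks with the highest signal values (in parentheses) among those with the AP-1 motif inside the B1 SINE, 1 to 50 bp beyond its head and 1 to 50 bp beyond its tail, drawn to scale in bp from the peak midpoint. The grey line is the peak, the arrow the B1 SINE from head to tail and the blue tick the nearest AP-1 motif. In *Rbpj* and *Insc* the element reaches past the edge of the peak, and the pair lies away from the midpoint in most of the 15.

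Of 21000 protein-coding genes, 1196 (5.7%) had a peak with both features in the gene or within 10 kb, and 699 (3.33%) had one in the gene. A peak of any kind in the gene or within 10 kb was found for 5718 (27.2%). The genes with both features were long, with a median of 41138.5 bp against 16724 bp over all protein-coding genes. *Lamc1*, which encodes the gamma chain of basement membrane laminins, had the most in the gene, 4, all in its first intron, with signal values of 0.699, 0.850, 1.03 and 1.81 and spacings of 162 bp, 254 bp, 460 bp and 346 bp. The strongest of them had a q-value of 7.45e-05. A further 10 genes had 3 or more in the gene, among them *Frmd6* (highest signal value 1.53), *Arhgap18* (1.29), *Arhgap21* (1.04) and *Efna5* (1.02), as well as *Pdlim5*, *Camk2d*, *Tspan5* and *Myo1e* (0.745 to 0.858). *Arhgap18* and *Arhgap21* encode GTPase-activating proteins, and *Efna5* an ephrin. At *Myo1e*, an unconventional myosin, 1 of the 3 had the AP-1 motif inside the element.

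Of 12 genes for AP-1 subunits, 1 had such peaks in the gene or within 10 kb (8.33%), beside 5.7% of all protein-coding genes. A peak of any kind was found for 6 of the 12, beside 27.2% of all protein-coding genes. The gene with both features was *Fosb*, with 2 such peaks within 10 kb and none in the gene. The stronger had a signal value of 1.19 (q-value 0.0102) and a spacing of 716 bp, and the other a signal value of 0.893 (q-value 0.0530), with the motif 3 bp beyond the head.

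Of 15 textbook targets of AP-1 in fibroblasts, 5 had such a peak (33.3%), beside 5.7% of all protein-coding genes, and the median length of the 15 genes was 7901 bp. A peak of any kind was found for 7 of the 15, beside 27.2% of all protein-coding genes. *Plaur*, the urokinase receptor, had one in an intron (signal value 0.917, q-value 0.00415, spacing 301 bp), and *Plau*, urokinase itself, had one 7410 bp away (0.512, 0.00997, 809 bp). *Hmox1*, heme oxygenase, had 2, with signal values of 0.790 (q-value 0.0126) and 0.483 (q-value 0.0359). The peaks at the chemokine gene *Ccl2* (signal value 0.581, q-value 0.0533) and within 10 kb of *Tgfb1* (0.641, 0.0616, nearest to *Tmem91*) had q-values above 0.05. With 15 genes on the list this is a description of 5 loci.

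Of 20 genes of the fibroblast extracellular matrix, 4 had one (20%, beside 5.7% of all protein-coding genes) and 12 had a peak of any kind, and the median length of the list was 38416.5 bp. *Col6a3*, a chain of collagen VI, had 2 in its first intron (signal values 0.867 and 0.578), and *Col5a2*, a chain of collagen V, had 1 in its first intron with a signal value of 1.12 and a q-value of 0.00537. In *Sparc* (osteonectin, signal value 0.414, q-value 0.0300) and *Loxl1* (lysyl oxidase-like 1, 0.920, 0.0563) the motif stood 22 bp and 39 bp beyond the head of the element. Of 20 fibroblast transcription factors 2 had one (10%), *Zeb2* (signal value 0.487) and *Tead1* (0.880), and 9 a peak of any kind. Of 12 genes of the KRAB corepressor complex 2 had one (16.7%), *Smarcad1* (0.906) and *Cbx5* (0.501, at an exon of *Nfe2*), and 6 a peak of any kind. Of 20 pluripotency genes, 0 had a peak with both features, and 5 had a peak of any kind, in the gene or within 10 kb, beside 5.7% and 27.2% of all protein-coding genes.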

How the data were processed

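DamID-seq was done on 5 Dam and 5 Dam-ZFP266 samples of MEFs. The authors trimmed reads with Cutadapt, aligned them with BWA to GRCm38 (GRCm38.p6 in the submitters' processing notes), removed mitochondrial and blacklisted reads, used Rsubread to count reads on each DpnII fragment, and called peaks by the Daim software. The versions are not given in the sources used here. As example limits for a peak the authors name an FDR under 0.05 and a log2 fold change above 1. In the deposited list 52.5% of the peaks had a q-value under 0.05, and 26.4% had this together with a signal value above 1. Whether the signal value is that fold change is not stated. The deposited list pools the 10 samples and gives each peak a score, a signal value, a −log10 p-value and a −log10 q-value. Read depth and the spread between replicates are therefore unknown, and no test between samples was possible.

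B1 SINEs were found by searching chromosomes 1 to 19, X and Y with blastn 2.17.0 (word defaults of the blastn task, E-value limit 10, no masking), which gave 281523 elements of 70% identity or more over 80 bp. Hits sharing over 50% of their bases were counted as 1 element. AP-1 motifs were exact matches on either strand. The consensus was known only from a picture and was rebuilt from 2 stretches of the reference. Locations used curated RefSeq transcripts. Shares have Wilson intervals, densities exact Poisson intervals and medians order-statistic intervals, at 95%. The steps were tested on simulated sequence. The MEFs were of the 129 strain while GRCm38 is of C57BL/6J, so elements that differ between them were missed or misread.

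The definition of the peaks and the gene lists were chosen with earlier results of these data known. Named loci are the 10 highest signal values outside *Zfp266*, the 5 highest for each close order of the features, the longest peak, the 10 genes with the most such peaks and the listed genes with one within 10 kb. Alternatives covered the identity and length of the B1 SINE, the overlap, the AP-1 definition, stricter peaks, the reference element and the annotation. A gene and 2 sequences that this rule names are not reported here. Peaks of the study's other assays were not used here.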

Additional observations from a re-analysis of the deposited data

How the results depend on the processing

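No paired analysis was possible because the deposited list pools all 10 samples and no result comes from a test between them. For the same reason no replicate could be left out. Of 91 values recomputed under 12 settings, 73 stayed within the interval of the reported value, or within 1.5 times a reported count, and 18 moved. The 73 include values that had no room to move. Leaving out the peaks over *Zfp266* took out none with both features and changed no value. Measuring from any B1 SINE in the range kept the same peaks, so their number, signal values, introns and genes stayed as they were. The setting of full-length B1 SINEs (aligned from the first 5 to past the first 130 positions) and the share of close motifs beyond the head were added after seeing the data. So was the restriction to elements wholly in the peak, under which the share of peaks with the motif nearer to the midpoint was 49.3% in place of 57.1%.

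With the 25% of the peaks of highest score, 578 peaks held both features, near 412 genes, with a median spacing of 573.5 bp, 53.3% of flanking motifs on the head side, a median signal value of 1.01 and a density ratio within 100 bp of 0.889 (0.677 to 1.15). With peaks of q under 0.05 and signal value above 1, there were 395 peaks near 276 genes, with a median spacing of 422 bp, 38.7% in introns, a median signal value of 1.19 and a density ratio of 0.884 (0.659 to 1.17). Fewer peaks enter both settings by construction. Both density ratios moved above the interval of the reported 0.734 (0.621 to 0.863), and their own intervals reach past 1. In these stricter peaks the scarcity of AP-1 motifs within 100 bp was thus smaller and not beyond counting error. With TGANTCA as the motif the median spacing was 457 bp. Measured from any B1 SINE in the range it was 453 bp and the density ratio 0.863 (0.739 to 1.00), an interval that also reaches 1, where the element nearest to a motif is taken by construction. GENCODE vM21 put 48.9% of the peaks in introns, and full-length elements left 1062 peaks. The share of motifs 1 to 50 bp away that lay beyond the head was 75.8%, and between 73.8% and 82.1% under its alternatives.

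The median −log10 q of the list is 1.33 and many q-values are above 0.05, positions are known only to within DpnII fragments, and the counts inside the element (23) and 1 to 50 bp from it (50 and 16) limit what the close orders can show.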

Other observations

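Binding words of reprogramming factors were also counted in the peaks with a B1 SINE and an AP-1 motif. A KLF word (CCACACCC, CCACGCCC, CCCCACCC or CCCCGCCC, either strand), as KLF4 binds, was found in 993 of 1666 (59.6%, Wilson interval 57.2 to 61.9). It was found in 47.7% (45.5 to 49.8) of the shorter peaks with the B1 SINE only and in 39.3% (37.9 to 40.7) of those with the AP-1 motif only. Those with neither held it in 34.4% (33.1 to 35.6), and tiles of GRCm38 with the lengths of the 1666 in 38.8%. KLF words were denser inside the B1 SINE, with 1.44 KLF words per kb inside the element (1.28 to 1.61, 303 words), than in the flanks, with 0.445 per kb at 1001 to 2000 bp beyond the head. B1 SINEs outside peaks had 1.05 per kb inside (1.04 to 1.06) and 0.334 per kb at that distance. The SOX word CCATTGT, as SOX2 binds, was held by 508 of the 1666 (30.5%, 28.3 to 32.7), by 22.2% of the peaks with the B1 SINE only, by 29.4% of those with the AP-1 motif only, by 22.2% of those with neither and by 37.0% of tiles. The other groups of peaks were shorter than the 1666, whose median length was 2510 bp. Their medians were 1728 bp with the B1 SINE only, 1971.5 bp with the AP-1 motif only and 1479 bp with neither. The shares of these groups are therefore not at a like length, while the tiles are. The tiles need not hold a B1 SINE, though, while the rule puts one in each of the 1666. Since B1 SINEs outside peaks also hold KLF words densely, the tiles are no like comparison for KLF words. The 4 KLF words can overlap each other in a run of C, and no test was made.

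The AP-1 motifs of these peaks carried the 9-base form ATGACTCAT or its reverse complement ATGAGTCAT in 189 of 2551 (7.41%, 6.46 to 8.49), beside 8.51% (7.88 to 9.19) in peaks without a B1 SINE and 5.92% in GRCm38. Repeat-masked bases, shown in lower case in the RefSeq assembly, held 21.0% (19.4 to 22.6) of the 2551, 14.4% (13.6 to 15.3) of those in peaks without a B1 SINE and 21.3% of those in GRCm38.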
